A study of Mus musculus with 16 samples.

Results

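The cytosolic ribosomal protein genes were taken as every row of the deposited expression table whose mouse symbol has the form *Rpl* or *Rps* followed by a number, with an optional a, l or x, together with *Rplp0*, *Rplp1*, *Rplp2* and *Rpsa*. Rows named as pseudogenes were left out. This rule, which uses symbols only, found 80 of the 30386 genes of the table, of which 49 encode proteins of the large (60S) subunit and 31 proteins of the small (40S) subunit. The RNA came from neural stem/progenitor cells (NSPCs) grown from the subventricular zone of mice at 3 months of age. The cells constitutively carried a *Dbx2* transgene (*Dbx2*-NSPCs, 8 samples) or a *GFP* transgene (*GFP*-NSPCs, 8 samples), and the comparison asks how a raised level of *Dbx2*, a homeobox transcription factor, relates to gene expression in these cells. Both transgenes had been introduced by nucleofection and selected with puromycin, so that all 16 samples shared the vector backbone, the selection and the growth as non-adherent spheres with EGF and FGF2. The samples came from 2 pairs of selected lines, so that the spread within a group is one between cultures of few lines. The labels do not say which sample belongs to which line.

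Expression was measured with 3' mRNA sequencing, which counts reads near the poly(A) tail, and was given as CPM, the reads of a gene scaled to a fixed total for each library. The depth was 1803928 to 3293285 reads per sample, so that a count of 3 reads, taken as the floor, corresponded to 0.911 to 1.66 CPM. Reads of *Dbx2* itself lay between 30.7 and 171 CPM in *GFP*-NSPCs and 114 to 232 CPM in *Dbx2*-NSPCs, with group ranges that overlapped. They were higher in *Dbx2*-NSPCs in 8 of 8 pairs of samples with the same number. In samples numbered 1 to 4 they were 89.3 to 171 CPM in *GFP*-NSPCs and 136 to 232 CPM in *Dbx2*-NSPCs. In samples numbered 5 to 8 they were 30.7 to 39.5 CPM and 114 to 155 CPM, without overlap. Whether the 3' reads come from the transgene or from the endogenous gene is not given in the sources used here. All 8 markers of NSPCs were detected, with sums of 5445 to 6031 CPM in *GFP*-NSPCs and 4532 to 5595 CPM in *Dbx2*-NSPCs, and 3 of them, *Egfr*, *Fabp7* and *Msi1*, were called lower by limma. The 5 microglial markers summed to at most 2.45 CPM with *Aif1* at 0, and the 4 endothelial markers to at most 8.08 CPM with *Cldn5* and *Cdh5* at 0. The 5 astrocyte markers summed to 256 to 473 CPM in *GFP*-NSPCs and 457 to 813 CPM in *Dbx2*-NSPCs but moved both ways, with *Aldoc* (mean 208 to 562 CPM) and *Gfap* (5.77 to 42.6 CPM) called higher and *Gja1* (54.5 to 5.92 CPM) called lower. *Mobp* of oligodendrocytes and *Ccdc153* of ependymal cells were called higher from means of at most 1.43 CPM, and *Map2* of neurons lower. The part of these markers in the results below was not tested. In bulk RNA, fewer cells of a type and less RNA per cell cannot be told apart.

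Ribosomal proteins are made in matched amounts and assemble with ribosomal RNA in the nucleolus. Their messenger RNAs are among the most abundant of any growing cell, and most begin with a stretch of pyrimidines, the 5' terminal oligopyrimidine (TOP) motif, through which the mTOR pathway and LARP1 set their translation and stability. In the subventricular zone, the activation of quiescent neural stem cells is accompanied by a rise in the genes of protein synthesis.

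In these cells 77 of the 80 genes passed the filter, which asked for over 1 CPM in 4 or more samples of 16. The tested genes ranged from a mean of 18.4 CPM for *Rps6*, the substrate of S6 kinase, to 3554 CPM for *Rps26*, with a median of 620 CPM. The levels can be set side by side without a correction for length, because each transcript gives reads at its 3' end only, but they also depend on reads lost to near-identical copies, described below. The other 3 genes are paralogs with narrow tissue expression. *Rpl10l* and *Rpl39l*, known from the testis, had no read in any sample, and *Rpl3l*, known from heart and skeletal muscle, was at most 0.67 CPM, under the floor. The paralog *Rps27l*, a target of p53, had means of 247 ± 42.1 CPM in *GFP*-NSPCs against 242 ± 34.1 CPM in *Dbx2*-NSPCs (mean ± SD, n = 8 each here and below), with ranges that overlapped.

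One library stood apart from the rest. In replicate 4 of *Dbx2*-NSPCs, 12 tested ribosomal protein genes lay more than 1 log2 unit below the mean of the other 7 samples of the group, and 0 did so in each of the other 15 samples. The 12 genes, named here after their values were seen, were *Rpl7a*, *Rpl10*, *Rpl10a*, *Rpl15*, *Rpl17*, *Rpl30*, *Rpl35a* and *Rpl39* of the 60S subunit and *Rps2*, *Rps16*, *Rps23* and *Rps27a* of the 40S subunit. *Rpl7a* was furthest down, at 42.0 CPM in this library against a median of 186 CPM in the group, a deviation of -2.10 on the log2 scale. Other members were not low there: *Rps14* and *Rplp1* had their highest value of the group in the same library, at 3584 and 3478 CPM. The SD of the deviations over the 77 genes was 0.60 in this library and 0.12 to 0.21 in the other 15. The 12 genes were 15.6% of the tested ribosomal protein genes, and 5.18% of the genes averaging 10 CPM or more lay as low in this library. The count of calls over all samples, the scores and the library shares are given below with and without this library. The paired fit and the values within samples 1 to 4 include it.

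**Figure D1:**
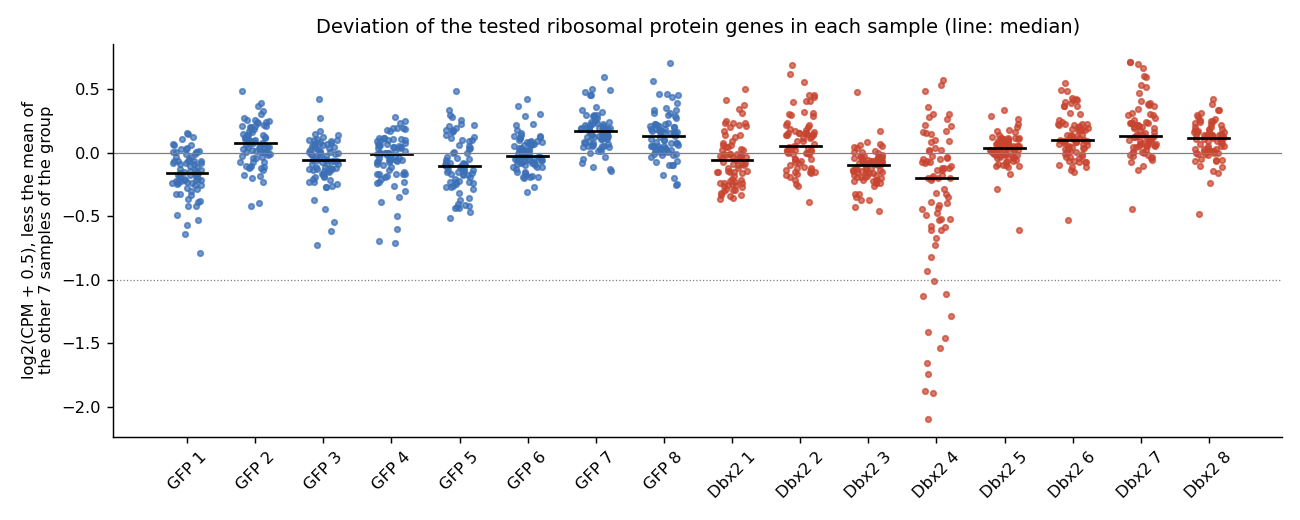
Each point is 1 tested ribosomal protein gene in 1 sample; the vertical axis gives its log2(CPM + 0.5) less the mean of the other 7 samples of its group, black lines are medians over the 77 genes and the dotted line marks -1. Replicate 4 of *Dbx2*-NSPCs has 12 genes under the dotted line and the other 15 samples have 0.

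Most ribosomal protein genes had a log2 fold change a little below 0 in *Dbx2*-NSPCs, in both subunits. With *GFP*-NSPCs as the reference, 15 of the 77 tested genes were called lower and 0 higher at an adjusted p under 0.05 (limma on log2(CPM + 0.5), Benjamini-Hochberg over 12533 genes), where 7.78% of all tested genes were called lower and 8.03% higher, 15.8% in both directions together. The called genes were 19.5% of the list. At an unadjusted p under 0.05, 29 of the 77 were lower and 1 higher, where 15.1% of all tested genes were lower and 14.1% higher (29.2% together). The log2 fold change was below 0 for 70 of the 77 genes, against 52.7% of all tested genes, and its median was -0.18, against -0.02 for all tested genes. Of the 60S genes 8 of 46 were called lower, with a median log2 fold change of -0.14. Of the 40S genes 7 of 31 were called lower, with a median of -0.23. The difference between the subunits was not tested. The fold changes ran from -0.68 for *Rpl41* to 0.34 for *Rpl11*, and the 7 genes above 0 were *Rpl7*, *Rpl11*, *Rpl28*, *Rpl38*, *Rps7*, *Rps14* and *Rps19*, none of them called.

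When samples with the same number were treated as pairs, 22 genes were called, 21 lower and 1 higher, with all 15 of the earlier calls among them (21.7% of all tested genes were called, 10.9% lower and 10.8% higher). Among the genes called only in this fit were *Rpl6*, *Rpl10*, *Rps3*, *Rps27* and *Rpsa*, which were lower, and *Rpl11*, which was higher. In 8 of 8 same-numbered pairs, 20 of the 77 genes were lower in *Dbx2*-NSPCs, against 7.47% of all tested genes. The labels do not say that samples of the same number belong together. Without replicate 4 of *Dbx2*-NSPCs, 14 genes were called lower (7.58% of all tested genes lower, 8.23% higher, 15.8% together), all among the 15, 65 were below 0 and the median was -0.13 (-0.11 for the 60S and -0.16 for the 40S genes). The call lost was that of *Rpl9*, at -0.22 on the log2 scale (limma, adjusted p = 0.0528). Without replicate 1 of *GFP*-NSPCs 17 genes were called lower (9% of all tested genes lower, 8.63% higher, 17.6% together), 12 of them among the 15, and the calls lost were *Rpl13*, *Rpl23a* and *Rpl35a*. Without both libraries 20 genes were called lower, all 15 among them (8.81% of all tested genes lower, 8.90% higher, 17.7% together). With TMM scaling in place of the deposited totals, 66 of the 77 genes were below 0 against 50% of all tested genes, with a median of -0.16, and 12 were called, all of them lower, where 7.01% of all tested genes were called lower and 8.66% higher (15.7% together).

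**Figure D2:**
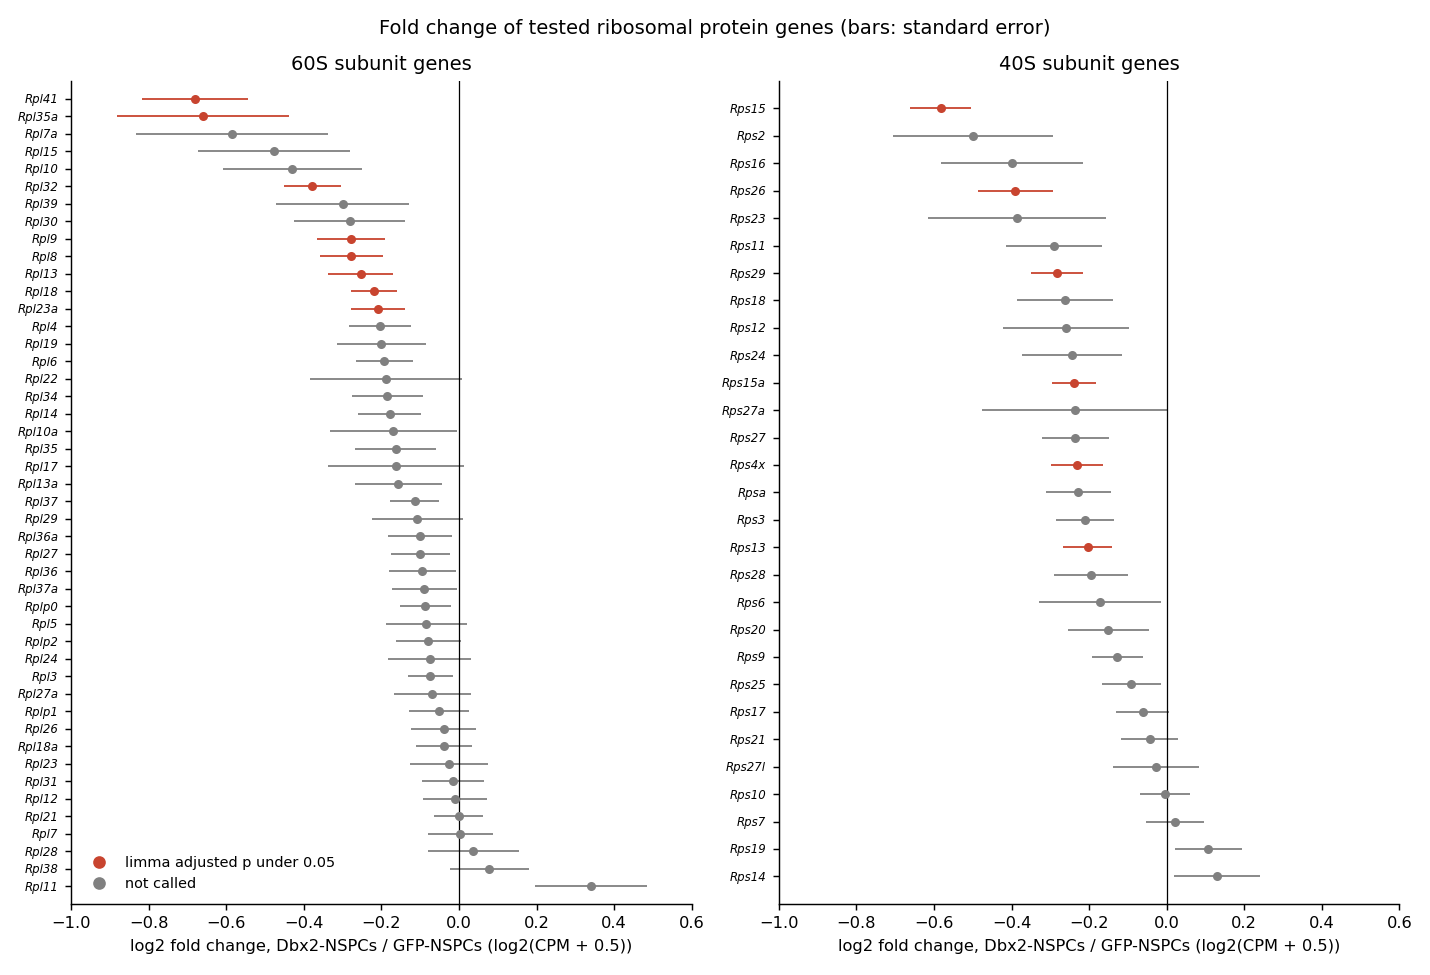
Log2 fold change of the tested ribosomal protein genes except those not reported singly (horizontal axis, *Dbx2*-NSPCs over *GFP*-NSPCs on the log2(CPM + 0.5) scale), with bars of 1 standard error, for the 60S and the 40S subunit. The called genes, in red, all lie below 0, and all points but those of the 7 genes named above lie left of the vertical line at 0.

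A score per sample was taken as the mean log2(CPM + 0.5) of the 77 genes less that of all tested genes. The score was 4.54, 4.66 and 4.84 in *GFP*-NSPCs (lowest, median and highest) against 4.28, 4.53 and 4.65 in *Dbx2*-NSPCs. The group means were 4.69 ± 0.105 and 4.49 ± 0.123, a difference of -0.20 that was of the same sign in 8 of 8 same-numbered pairs, while 3 samples of *GFP*-NSPCs lay below the highest of *Dbx2*-NSPCs. The 60S score was 4.50 ± 0.0962 in *GFP*-NSPCs against 4.31 ± 0.119 in *Dbx2*-NSPCs. The 40S score was 4.98 ± 0.124 and 4.76 ± 0.131. Both subunit scores were lower in *Dbx2*-NSPCs in every pair, and the pair differences of the whole score ran from -0.38 to -0.08. The score difference was -0.24 in samples 1 to 4, -0.16 in samples 5 to 8 and -0.17 without replicate 4 of *Dbx2*-NSPCs. Without that replicate the 60S score differed by -0.15 and the 40S score by -0.19.

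As a share of all CPM, the 80 genes held 5.29%, 6.03% and 6.64% of the libraries of *GFP*-NSPCs (lowest, median and highest) and 5.02%, 5.42% and 5.73% of those of *Dbx2*-NSPCs. The means were 6.04 ± 0.399% and 5.41 ± 0.256%, and the share was lower in *Dbx2*-NSPCs in 8 of 8 pairs. The difference was -0.63 percentage points with replicate 4 of *Dbx2*-NSPCs and -0.61 without it. Only replicate 1 of *GFP*-NSPCs lay within the range of the *Dbx2*-NSPCs. The 60S genes went from 3.05 ± 0.160% to 2.80 ± 0.116% and the 40S genes from 2.99 ± 0.257% to 2.62 ± 0.143%. The share held by mitochondrially encoded genes moved the other way, from 4.23 ± 1.26% to 6.30 ± 1.22%, and was higher in *Dbx2*-NSPCs in 8 of 8 pairs. It was 6.96% in replicate 1 of *GFP*-NSPCs, the sample with the lowest ribosomal protein share of its group. The part of the mitochondrial share in the ribosomal protein values was not tested.

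**Figure D3:**
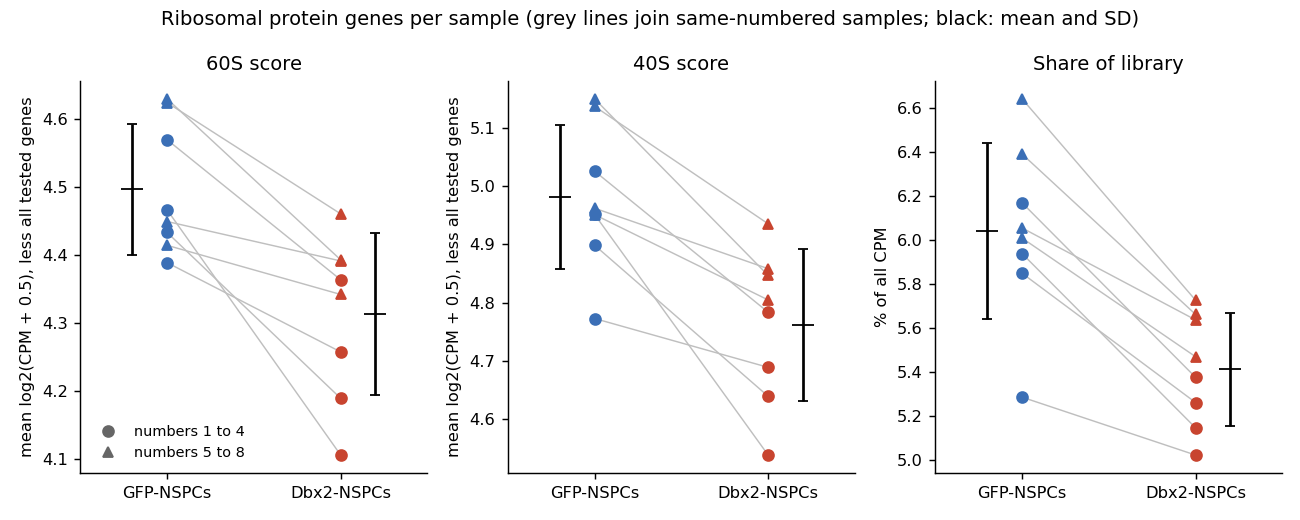
The 60S score, the 40S score (both mean log2(CPM + 0.5) of the subunit's tested genes less that of all tested genes) and the share of all CPM held by the 80 genes (%), 1 point per sample, with circles for numbers 1 to 4, triangles for numbers 5 to 8, grey lines joining samples of the same number and black bars for the mean and SD (n = 8). Every grey line falls from *GFP*-NSPCs to *Dbx2*-NSPCs in all panels, while the ranges of the groups overlap.

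Among the 40S genes, *Rps15* had the smallest p of all members. It encodes a protein of the head of the small subunit whose tail reaches towards the decoding centre, and lies on mouse chr10:80292453-80294114, plus strand (GRCm38). Its level was 714, 988 and 1074 CPM in *GFP*-NSPCs (lowest, median and highest) against 573, 639 and 728 CPM in *Dbx2*-NSPCs. All *Dbx2* samples but the highest, replicate 4, lay below every *GFP* sample, and the lowest *GFP* sample was replicate 1, the others lying at 958 CPM or above. The mean fell from 967 ± 110 to 642 ± 42.8 CPM, a log2 fold change of -0.58 (SE 0.079, limma, adjusted p = 4.1e-05), and the log2 fold change was -0.64 without replicate 1 of *GFP*-NSPCs.

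*Rps26*, the most abundant member, encodes the protein at the exit of the mRNA channel. It was 2840, 4154 and 4531 CPM in *GFP*-NSPCs against 2626, 3114 and 3513 CPM in *Dbx2*-NSPCs. Apart from replicate 1 of *GFP*-NSPCs, the lowest of its group, the ranges did not meet. The log2 fold change was -0.39 (SE 0.096, limma, adjusted p = 0.00869).

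*Rps15a*, a protein of the body of the small subunit that binds 18S rRNA, was 786, 827 and 913 CPM in *GFP*-NSPCs against 669, 719 and 756 CPM in *Dbx2*-NSPCs. It was 1 of the 3 members whose groups did not overlap, all 3 of them lower in *Dbx2*-NSPCs, where 3.41% of all tested genes did not overlap, 1.81% lower and 1.60% higher. Its log2 fold change was -0.24 (SE 0.057, limma, adjusted p = 0.00727). *Rps29*, a small zinc-binding protein of the head, was 1336, 1559 and 1735 CPM in *GFP*-NSPCs against 1155, 1285 and 1401 CPM in *Dbx2*-NSPCs, with 1 *GFP* sample inside the other range. Its log2 fold change was -0.28 (SE 0.067, limma, adjusted p = 0.00693).

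Other called 40S genes had smaller changes. *Rps13*, which binds the central domain of 18S rRNA, fell from 1002 ± 57.2 to 870.1 ± 55.9 CPM (log2 fold change -0.20, limma, adjusted p = 0.0311). *Rps4x*, the X-linked form of the protein, fell from 252 ± 21.0 to 215 ± 14.8 CPM (log2 fold change -0.23, adjusted p = 0.0251). Both were lower in 8 of 8 same-numbered pairs, with group ranges that overlapped.

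Among the 60S genes, *Rpl32* had the smallest p. Widely used as a reference gene in PCR, it lies at chr6:115805505-115808747, minus strand. Its level was 947, 1033 and 1170.4 CPM in *GFP*-NSPCs against 630, 829.2 and 920 CPM in *Dbx2*-NSPCs, without overlap, and replicate 4 was the lowest *Dbx2* sample. The log2 fold change was -0.38 (SE 0.074, limma, adjusted p = 0.00152), and -0.33 without that sample. *Rpl41*, which encodes the smallest ribosomal protein and lies at chr10:128548114-128549305, minus strand, had the largest change among the tested members. It was 504, 867 and 1088 CPM in *GFP*-NSPCs against 411, 529 and 646 CPM in *Dbx2*-NSPCs. Its lowest *GFP* sample was again replicate 1, the only one below the highest *Dbx2* sample. The log2 fold change was -0.68 (SE 0.137, limma, adjusted p = 0.00193).

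*Rpl18*, the third member without overlap, was 527, 566 and 583 CPM in *GFP*-NSPCs against 433, 492 and 523 CPM in *Dbx2*-NSPCs, and the gap between the groups was small (log2 fold change -0.22, limma, adjusted p = 0.0151). *Rpl8*, near the peptidyl transferase centre, fell from 1150.4 ± 108 to 951 ± 110 CPM (log2 fold change -0.28, adjusted p = 0.0240). *Rpl9*, near the base of the P stalk, fell from 371 ± 35.2 to 307 ± 40.2 CPM (log2 fold change -0.28, adjusted p = 0.0373), with its lowest value in replicate 4. *Rpl13* fell from 1367 ± 167 to 1142 ± 98.8 CPM (log2 fold change -0.25, adjusted p = 0.0447) and was lower in 6 of 8 pairs.

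*Rpl23a*, which lines the exit of the nascent peptide and binds factors that dock there, fell from 1886 ± 177 to 1629 ± 84.7 CPM (log2 fold change -0.21, limma, adjusted p = 0.0487). *Rpl35a* was the least abundant called member. It was 63.2, 71.7 and 89.65 CPM in *GFP*-NSPCs against 16.15, 55.8 and 73.6 CPM in *Dbx2*-NSPCs, and the lowest value was that of replicate 4. Its log2 fold change was -0.66 (SE 0.222, limma, adjusted p = 0.0498) with that library and -0.44 (adjusted p = 0.0242) without it.

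**Figure D4:**
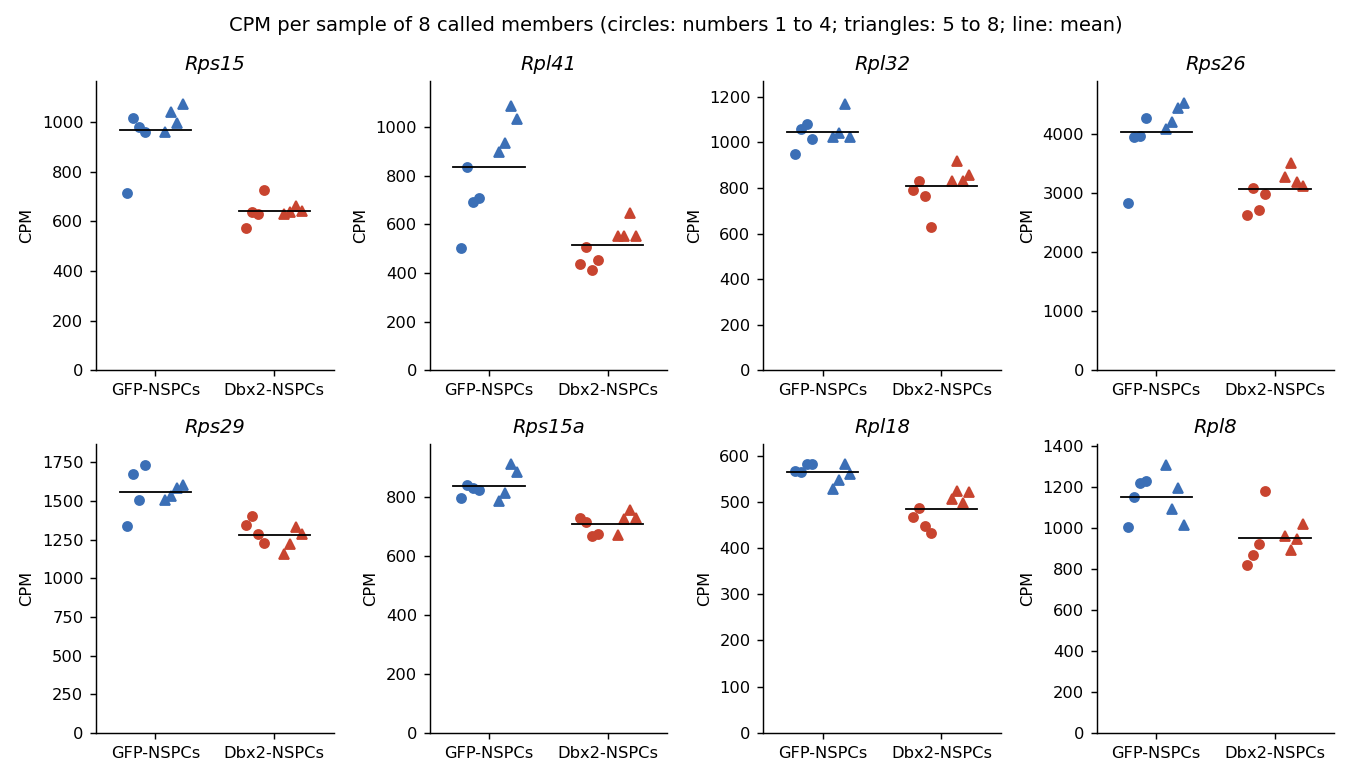
Level in CPM (vertical axes, from 0) of 8 called ribosomal protein genes, 1 point per sample, with circles for numbers 1 to 4, triangles for numbers 5 to 8 and lines for the group mean (n = 8). *Rpl32*, *Rps15a* and *Rpl18* do not overlap between the groups, and the low circles of *Rps15*, *Rpl41* and *Rps26* among the *GFP*-NSPCs are replicate 1.

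Members with a shared place in the ribosome or a shared extraribosomal role were counted from lists. Over all tested genes 7.78% were called lower, 8.03% were called higher and 52.7% were below 0. Whether any of these short lists differed from those shares was not tested. The 3 proteins of the P stalk, which recruits the translation factors with GTPase activity, were not called. *Rplp0* was 709 ± 47.6 and 668 ± 52.8 CPM (log2 fold change -0.09, limma, adjusted p = 0.416), *Rplp1*, the second most abundant member, 3001 ± 244 and 2895 ± 264.1 CPM (-0.05, adjusted p = 0.705), and *Rplp2* 1203 ± 148 and 1134 ± 89.2 CPM (-0.08, adjusted p = 0.575). Their ranges overlapped in each case. Of the 7 proteins around the exit tunnel, all 7 had a log2 fold change below 0 and 1, *Rpl23a*, was called, with a median of -0.16; *Rpl17* and *Rpl39* of this list are among the genes low in replicate 4. *Rpl19*, also of the exit tunnel and the reference gene of the study for PCR, was 122 ± 10.6 CPM in *GFP*-NSPCs against 108 ± 21.7 CPM in *Dbx2*-NSPCs and was not called (log2 fold change -0.20, adjusted p = 0.257).

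Of 4 genes listed for proteins that bind Mdm2, the ubiquitin ligase of p53, 0 were called, with a median log2 fold change of -0.03, and other members that bind it were not on the list. *Rps27l*, one of the 4, was at -0.03 on the log2 scale (limma, adjusted p = 0.899). A list of 10 members has human counterparts that can be mutated in Diamond-Blackfan anaemia, and is not complete. It held 2 called lower, *Rps26* and *Rpl35a*, and 7 below 0, with a median of -0.05. Over all tested genes 7.78% were called lower and 52.7% were below 0. *Rps29*, *Rps15a* and *Rpl18*, called lower above, are linked to the disease too and were not on that list. Of the most abundant members, *Rps14* had a log2 fold change of 0.13 (2342 ± 378 and 2567 ± 450.4 CPM, adjusted p = 0.470). *Rps20* had one of -0.15 (1991 ± 309 and 1787 ± 223 CPM, adjusted p = 0.358). Neither was called.

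The starts of the genes were read from RefSeq (GRCm38.p6), which had an entry for 60 of the 80 genes, to show how far the members that fell carry the sequence known of TOP mRNAs. The 6 called genes with the smallest p among those with an entry are shown, from 15 bases before to 15 after the annotated start. Capitals mark the longest run of C and T that touches the 10 bases around the start.
*Rps15*, chr10:80292416-80292445, plus strand: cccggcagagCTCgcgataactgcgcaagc
*Rpl41*, chr10:128549154-128549183, minus strand: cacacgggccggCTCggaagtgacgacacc
*Rps15a*, chr7:118116133-118116162, minus strand: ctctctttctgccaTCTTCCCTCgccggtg
*Rps26*, chr10:128626492-128626521, minus strand: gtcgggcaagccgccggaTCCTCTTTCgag
*Rpl18*, chr7:45718056-45718085, plus strand: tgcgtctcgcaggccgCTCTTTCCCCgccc
*Rps4x*, chrX:102189377-102189406, minus strand: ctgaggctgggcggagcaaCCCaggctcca

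In *Rps15a*, *Rps26* and *Rpl18* the run was 9, 9 and 10 bases long. In *Rps15*, *Rpl41* and *Rps4x* it was 3 bases at the annotated start, which need not be the start used in these cells. Over the 60 genes, 23 (38.3%) had a run of at least 8 bases, against 11.4% of the 27025 genes with an entry and 12.3% of the tested ones. The 300 bases from 250 before to 50 after the start were also searched on both strands for short motifs. The Ets motif CCGGAAG was in 25 of the 60 genes (41.7%), against 9.93% of all genes with an entry and 20.3% of the tested ones. The YY1 motif AAGATGG was in 9 (15%, against 7.28% and 8.59%), and the Sp1 motif GGGCGG in 36 (60%, against 38.2% and 70.3%). The homeodomain core TAATTA was in 1 of the 60 (1.67%, against 6.12% and 3.04%), that of *Rps26*. The E-box CACGTG was in 6 (10%, against 8.09% and 11.9%) and TATAAA in 6 (10%, against 15.7% and 8.21%). These are matches of letters and carry no measurement of binding.

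The samples numbered 1 to 4 differed from those numbered 5 to 8 in many genes, and the labels do not say what this division is. The study describes 4 independent experiments for each of its 2 pairs of lines. Whether the sets of numbers are these pairs was not tested. Within samples 1 to 4, 8 of the 77 members were called, 6 lower and 2 higher, where 15.6% of all tested genes were called (7.37% lower, 8.19% higher), and 69 members were below 0 with a median of -0.21. Within samples 5 to 8, 16 were called, 15 lower and 1 higher, where 23.2% of all tested genes were called (11.7% lower, 11.5% higher), and 60 were below 0 with a median of -0.10. *Rps15* fell in both sets, with log2 fold changes of -0.51 (adjusted p = 0.0164) and -0.66 (adjusted p = 5.78e-06), as did *Rpl41*, with -0.58 and -0.78, and *Rpl32*, with -0.45 and -0.31, each past the threshold. The fold change itself differed between the sets for 4 of the 77 members (limma interaction term, adjusted p under 0.05), where 9.44% of all tested genes were called (5.04% below 0, 4.40% above). Without replicate 4 of *Dbx2*-NSPCs 5 members were called. The share of all tested genes called in that fit was not counted, so this number cannot be read as an excess or a lack.

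*Rpl22*, whose protein binds RNA and is dispensable for translation in many tissues, turned from one direction to the other. In samples 1 to 4 it was 331 to 522 CPM in *GFP*-NSPCs and 597 to 628 CPM in *Dbx2*-NSPCs. In samples 5 to 8 it was 607 to 692 CPM in *GFP*-NSPCs and 309 to 341 CPM in *Dbx2*-NSPCs. The groups did not overlap within either set, and the log2 fold changes were 0.60 (limma, adjusted p = 0.00645) and -0.98 (adjusted p = 3.68e-07), a difference of -1.58 (SE 0.145, adjusted p = 4.09e-08). Over all samples its log2 fold change was -0.19 (adjusted p = 0.572), which described neither set.

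*Rpl38*, known for its part in the translation of Hox mRNAs, was 585 to 662 CPM in *GFP*-NSPCs and 487 to 579 CPM in *Dbx2*-NSPCs of samples 1 to 4. In samples 5 to 8 it was 549 to 558 and 705 to 756 CPM. Its log2 fold change was -0.25 (limma, adjusted p = 0.0841) in the first set and 0.41 (adjusted p = 2.56e-04) in the second, a difference of 0.66 (adjusted p = 1.93e-04). *Rps12*, a protein of the beak of the small subunit, was 1236 to 1591 and 1340.0 to 1479 CPM in samples 1 to 4 and 2170 to 2810.0 and 1538 to 1761 CPM in samples 5 to 8. The *GFP* samples 5 to 8 were the high ones. The log2 fold changes were 0.08 (limma, adjusted p = 0.685) in the first set and -0.59 (adjusted p = 2.19e-04) in the second, a difference of -0.67 (adjusted p = 0.00184).

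*Rpl11*, which binds Mdm2 and is the member with the highest fold change, was 486 to 811 CPM in *GFP*-NSPCs and 824 to 1015 CPM in *Dbx2*-NSPCs of samples 1 to 4, and 827 to 1045 and 901 to 997 CPM in samples 5 to 8. The rise was called in the first set (log2 fold change 0.65, limma, adjusted p = 0.0115) and not in the second (0.03, adjusted p = 0.812), with a difference of -0.61 (adjusted p = 0.0202). Over all samples it was 0.34, with an adjusted p of 0.120 without pairs and 0.0376 with the replicate block. The *GFP* samples 1 to 4 lay below the other 12. Replicate 1 of these *GFP* samples, at 811 CPM, was close to the lowest of the 12, at 824 CPM. Replicates 2 to 4 lay further down, at 486 to 583 CPM.

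Some genes next to these members on the chromosome were also called for a difference between the sets. Over all tested genes 9.44% were called for such a difference. Of the 20 tested genes nearest to *Rpl22* on chromosome 4, 10 on each side, 16 were called for a difference between the sets, all 16 in the direction of *Rpl22*, with a median of -1.71. Of the 20 around *Rpl11*, on the same chromosome, 7 were called, with a median of -0.65. For *Rpl38* on chromosome 11, 5 were called, 4 of them in its direction, with a median of 0.40, and for *Rps12* on chromosome 10, 4 were called, with a median of -0.44. What the neighbours share was not tested.

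The calls over all samples were also made with the set of numbers as a covariate. It gave 24 called members, 23 lower and 1 higher (24.2% of all tested genes, 12.2% lower and 12% higher), with all 15 of the earlier calls among them. On the read counts recovered from the CPM, edgeR called 11 members lower and 0 higher, all 11 among the 15, where 7.01% of all tested genes were lower and 8.38% higher (15.4% together). DESeq2 called 16 lower and 0 higher, with all 15 among them, where 8.11% were lower and 9.42% higher (17.5% together). With the same covariate edgeR called 20 lower and 1 higher, where 10.9% were lower and 12.5% higher (23.4% together).

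**Figure D5:**
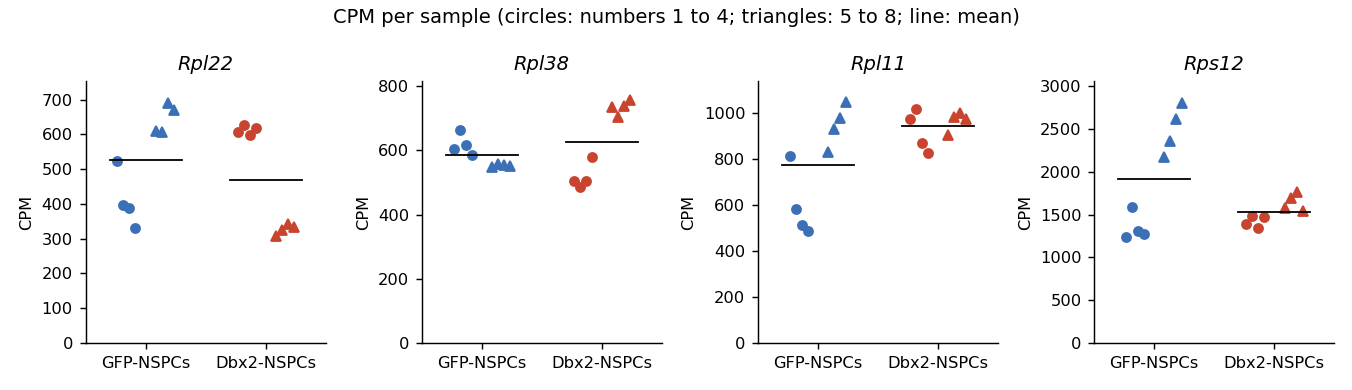
Level in CPM (vertical axes, from 0) of the 4 members whose fold change differed between the sets of numbers, 1 point per sample, with circles for numbers 1 to 4, triangles for numbers 5 to 8 and lines for the mean of all 8. For *Rpl22* the circles rise from *GFP*-NSPCs to *Dbx2*-NSPCs and the triangles fall, for *Rpl38* the reverse holds, and for *Rpl11* and *Rps12* one set carries most of the change.

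Ribosomal protein genes have many near-identical pseudogenes, and a read that fits several places can be lost or misplaced. In the last 300 bases of the annotated transcripts (GENCODE, GRCm38), a median of 33.0% of windows as long as a read (101 bases) of a tested member were also found in a transcript of another gene. The share was above 0 for 60 of the 77 members, at least 20% for 49 and at least 50% for 22. Across the 77 genes it had a Pearson correlation of -0.31 with log2 mean CPM. Of the 28 members with under 20% shared, 4 were called lower and 28 were below 0, with a median log2 fold change of -0.19. Of the 49 others, 11 were called lower and 42 were below 0, with a median of -0.16. Of the 8 members with no window of 50 bases shared, 0 were called and all 8 were below 0, with a median of -0.16. Over all tested genes 7.78% were called lower and 52.7% were below 0. At that share a list of 8 genes is too short to show a lack of calls.

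Among the called members, *Rpl32* had no shared window of read length, *Rpl8* had 6% and *Rps15* 17.6%. *Rpl13* had 79.0% and *Rpl23a* 74.5%, so that the levels of this pair are the less certain ones. Of windows of 50 bases, 29.8% were shared for *Rpl32*, 25.1% for *Rpl8* and 50.4% for *Rps15*. Reads were trimmed, and a shorter read of these genes can fit another place too. The 12 members that were low in replicate 4 of *Dbx2*-NSPCs had a median of 48.1% of windows shared, 3 of them none, and the other 65 a median of 31.0%. None of the 12 had a mean above 341 CPM. The 9 rows named as ribosomal protein pseudogenes summed to 45.4 ± 5.48 CPM in *GFP*-NSPCs against 36.4 ± 6.19 CPM in *Dbx2*-NSPCs. They were lower in 8 of 8 pairs, as the members' own share was. Of the 46 members with a mean of at least 500 CPM, 12 (26.1%) were called lower, with a median of -0.14. Of the 31 members below that level, 3 (9.68%) were called lower, with a median of -0.20. Over all tested genes, of any level, 7.78% were called lower.

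Other genes of translation that passed the test without pairs were also lower. Of 63 genes in lists of ribosome-related, initiation, elongation, TOP and mTOR genes, 11 (17.5%) were called lower and 0 higher, where 7.78% of all tested genes were lower and 8.03% higher, with a median log2 fold change of -0.13. With the replicate block 14 were called lower and 1 higher, *Eef1b2* (limma, adjusted p = 0.0315), where 10.9% of all tested genes were lower and 10.8% higher. Within samples 5 to 8, 13 were lower and 4 higher, where 11.7% of all tested genes were lower and 11.5% higher. Of the 6 other TOP mRNAs, 5 were called lower. *Naca*, a subunit of the nascent polypeptide-associated complex, fell from 240 ± 36.4 to 158 ± 31.3 CPM (log2 fold change -0.62, limma, adjusted p = 0.00359; -0.50 without replicate 4 of *Dbx2*-NSPCs), and its partner *Btf3* from 46.2 ± 4.58 to 37.4 ± 5.12 CPM (-0.31, adjusted p = 0.0422). *Nap1l1*, a histone chaperone, fell from 1265 ± 154 to 955 ± 76.0 CPM (-0.40, adjusted p = 0.00274) and *Hnrnpa1*, a splicing regulator, from 58.3 ± 8.27 to 42.3 ± 7.62 CPM (-0.46, adjusted p = 0.0126). *Tpt1* was the fifth, and *Npm1* was not called.

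Of the 9 elongation and release factors, 2 were called lower. *Eef2*, which moves the ribosome along the mRNA, was 2065 to 3057 CPM in *GFP*-NSPCs and 1521 to 2027 CPM in *Dbx2*-NSPCs, without overlap (log2 fold change -0.60, SE 0.089, limma, adjusted p = 1.16e-04). *Eef1a1*, which delivers aminoacyl-tRNA, fell from 1365 ± 106 to 1125 ± 115 CPM (-0.28, adjusted p = 0.0148). Of the 29 initiation factor genes, 3 (10.3%) were called lower, against 7.78% of all tested genes. *Eif5* had a log2 fold change of -0.31 (adjusted p = 0.00659), *Eif4a2*, a helicase, one of -0.42 (adjusted p = 0.0229) and *Eif4e*, the cap-binding protein, one of -0.26 (adjusted p = 0.0286). With TMM scaling the calls of *Eif4e* (limma, adjusted p = 0.0536) and of *Btf3* (adjusted p = 0.0548) were lost. Those of *Eif5* and *Eif4a2* stayed. Of the 7 fusion and related genes, 1 was called, *Rack1*, a scaffold on the head of the small subunit, at 893 ± 53.9 and 753 ± 49.7 CPM (-0.25, adjusted p = 0.0116). Of the 12 genes of mTOR signalling and TOP regulation, *Larp1* among them, 0 were called by limma over all samples, with a median of -0.07. In samples 1 to 4 alone 0 of them were called. In samples 5 to 8 alone 2 were called lower and 1 higher, where 11.7% of all tested genes were lower and 11.5% higher. The fold change of 1 of the 12 differed between the sets, where 9.44% of all tested genes were called.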

How the data were processed

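RNA of 8 *Dbx2*-NSPC and 8 *GFP*-NSPC cultures had been sequenced after library preparation from 100 ng of total RNA with a 3' mRNA kit, in single-end reads of 101 bases. Per the labels and the study's methods, the authors checked the reads with FastQC 0.11.8, trimmed them with bbduk, aligned them to GRCm38 with STAR 2.5.0a and used edgeR 3.36; the counting tool and its strand setting are not given in the sources used here, so that reads of a gene and of an antisense partner cannot be told apart. What the authors deposited was a single table of CPM, scaled to the total of each sample, with 30386 gene rows and 16 sample columns, of which 0 were left unused. Nearly all values were whole multiples of the CPM of 1 read (100% within 0.005 CPM plus 2 ppm of the value), and the whole reads recovered gave the depth of each sample and the counts for the edgeR and DESeq2 alternatives. CPM sums hold no other scaling between samples.

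The CPM were tested as log2(CPM + 0.5) with limma 3.58.1 (lmFit, eBayes with trend, 2-sided, R 4.3.3) on the 12533 genes that exceeded 1 CPM in 4 samples or more, with Benjamini-Hochberg adjustment over all of them; a fold change on this scale understates that of low genes. The study's own fit used the cell line, which the labels do not give, and it was not fitted here. Samples with the same number were checked for pairing. The correlation of their deviations from the group means was 0.152 to 0.303 in the 8 pairs. It was -0.01 to 0.12 once the sets 1 to 4 and 5 to 8 were centred separately, so that the check does not show pairs within a set. The replicate block and the counts over same-numbered pairs rest on the numbers alone. Other scalings, filters, pseudocounts, a replicate block, each set alone, edgeR 4.0.16 and DESeq2 1.42.0 were tried as alternatives, and the fits were tested on simulated data. Shared windows were counted over GENCODE transcripts, and starts were read from RefSeq.

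The members, the lists and the alternatives were chosen with earlier results of these data known, and the runs without replicate 4 of *Dbx2*-NSPCs or with members of few shared windows were added after the data were seen. Named are the called members, the 5 with the highest mean, *Rpl19*, the P stalk genes, paralogs ending in l, members that differed between the sets of numbers, and up to 4 called genes of each other list; the genes low in replicate 4, *Rps6*, *Tpt1*, *Npm1*, *Larp1*, *Eef1b2*, single cell type markers, the genes above 0 and those called only with the pairs were named after their values were seen. The authors' own comparison columns were not among the files used. The protein sequences are not used here. Single results of some members are not reported here, while the counts and medians cover all of them.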

Additional observations from a re-analysis of the deposited data

Results flagged for a closer look

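Of 78 groups of 8 samples that were searched for a sample far from the rest, 7 had one, where chance gives about 1 in 20 groups (3.9 of 78). Replicate 1 of *GFP*-NSPCs was low for *Rps15* at 714 CPM (the others 958 to 1074 CPM), for *Rps26* at 2840 CPM (the others 3956 to 4531 CPM) and for *Nap1l1* at 924 CPM (the others 1224 to 1422 CPM). Replicate 4 of *Dbx2*-NSPCs was high for *Rplp1* at 3478 CPM (the others 2632 to 3002 CPM) and *Rps14* at 3584 CPM (the others 2190.0 to 2811 CPM), and low for *Naca* at 87.2 CPM (the others 149 to 188 CPM). Replicate 5 of *GFP*-NSPCs, the sample with the fewest reads, was high for *Rps14* at 3114 CPM (the others 1903 to 2447 CPM).

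The log2 fold change in samples 5 to 8 less that in samples 1 to 4 was -1.58 for *Rpl22*, 0.66 for *Rpl38*, -0.61 for *Rpl11* and -0.67 for *Rps12*, each past the threshold of the limma interaction term.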

How the results depend on the processing

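Under the alternatives tried, the median log2 fold change of the members stayed below 0, between -0.21 and -0.10, and the score difference, recomputed for the scalings, pseudocounts, filters, sets and left-out libraries, between -0.24 and -0.16. The count of members called moved with the settings. It was 9, all lower, with no filter on low values and also 9, all lower, with eBayes without trend; 24 with the set of numbers as a covariate, 23 lower and 1 higher; 8 in numbers 1 to 4 alone, 6 lower and 2 higher; and 16 in numbers 5 to 8 alone, 15 lower and 1 higher. The cause was not tested. The share of all tested genes called was not counted for the settings that gave 9 calls, so these counts have no background beside them. For the other settings named here it is given above. On the recovered counts edgeR called 11, all lower, DESeq2 16, all lower, and edgeR with the set covariate 21, 20 lower and 1 higher. With the replicate block 22 were called, 21 lower and 1 higher, which is *Rpl11*; the pairing ended none of the 15 calls. Without replicate 1 of *GFP*-NSPCs, replicate 4 of *Dbx2*-NSPCs or both, 14 to 20 were called, all lower. Of single named genes, the direction turned in numbers 1 to 4 alone for *Rplp1* (0.033), *Rps27l* (0.013), *Rpl22* (0.60), *Rpl38* (-0.25) and *Rps12* (0.076), in numbers 5 to 8 alone for *Rps14* (-0.052) and *Rplp0* (0.011), and without replicate 4 of *Dbx2*-NSPCs for *Rps27l* (0.021, and -0.054 without replicate 1 of *GFP*-NSPCs). Over all named genes and alternatives, 567 values kept their direction and side of the threshold, 65 kept the direction but were no longer called, 8 became called and 8 turned. At these depths genes under 0.911 to 1.66 CPM cannot be told from 0, which touches the 3 untested paralogs.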
